A study of Mus musculus with 24 samples.

Results

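RNA was compared between 4 control and 4 Setd1a knockout libraries of the Paneth fraction, sorted from crypts of the mouse small intestine. These 8 libraries were chosen by their titles and are 8 of the 24 libraries of the series, in which the same 8 animals also gave stem and transit-amplifying (TA) libraries. Controls (het) carried Setd1aFC/+ and knockouts (hom) carried Setd1aFC/FC, so both groups held at least 1 FC allele. Both also carried Lgr5-eGFP-CreERT2, a tamoxifen-activated Cre under the stem cell gene Lgr5, and both received 1 mg tamoxifen on each of 3 days. Cells were taken 4 days after induction, after staining for EpCAM, CD24 and CD45. Strain and age are not given in the labels. The titles carry identifiers read here as animals: BN44, BO27, BO58 and BP03 for het and BN45, BO25, BO57 and BP04 for hom, and each series of 4 values below follows that order. Levels are in CPM, counts relative to a library size corrected by TMM (trimmed mean of M-values), and are not corrected for gene length, so they compare a gene between libraries and not with other genes.

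Paneth cells sit at the base of the crypt, where they secrete antimicrobial peptides and enzymes from large granules and provide Wnt and Notch signals to the neighbouring stem cells. They arise from Lgr5-expressing stem cells and are long-lived, while tuft cells (chemosensory, with taste-type signalling) and enteroendocrine cells (hormone-secreting) of the crypt also carry CD24. Setd1a is a methyltransferase that places methyl groups on lysine 4 of histone H3 within a COMPASS complex, a mark of active promoters.

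The alpha-defensins are the small antimicrobial peptides that make up much of the granule content, and they are encoded by a cluster of near-identical genes on chromosome 8. All 24 gene IDs of the family in the table were tested, and 13 of them matched a RefSeq promoter of 300 bases (GRCm38.p6, 250 before and 50 after the annotated start). The members moved together from library to library, and stretches of 3 of these promoters are shown as background. Whether the promoters play a part in this was not tested. Capitals mark TATAAA, the TATA box, and ATCAAAG, the reverse complement of CTTTGAT, a site of the TCF type bound in Wnt signalling. All are on the plus strand: chr8:21134493-21134604 for Defa30, chr8:21025418-21025529 for Defa21 and chr8:21509131-21509242 for Defa20.
Defa30: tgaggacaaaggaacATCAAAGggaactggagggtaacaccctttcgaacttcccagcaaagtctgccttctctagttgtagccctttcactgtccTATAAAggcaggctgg
Defa21: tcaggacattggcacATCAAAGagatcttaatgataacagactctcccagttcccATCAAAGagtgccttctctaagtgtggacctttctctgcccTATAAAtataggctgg
Defa20: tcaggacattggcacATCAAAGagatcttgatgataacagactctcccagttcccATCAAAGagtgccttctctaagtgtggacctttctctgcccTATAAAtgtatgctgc
The Defa30 stretch holds 1 ATCAAAG and the other two hold 2. On either strand TATAAA was found in 12 of the 13 promoters and CTTTGAT in 12, against 13.6% and 3.73% of 32851 RefSeq promoters of the same length. CTTTGTT was found in 0 of the 13 (5.85% of all promoters) and CAGCTG, an E-box, in 1 (16.3%). Defa24, the member with the most counts, was not among the 13. The 300 bases of Defa21 and Defa22 did not differ at any position. The same held for Defa20 and Defa2, for Defa23 and Defa31, and for Defa36 and Defa37. The 13 promoters are therefore not independent of each other. Reads from such copies may have been assigned to either gene, and single members are uncertain.

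Setd1a itself (chromosome 7, 127776670 to 127800122, mm10) stood at 5.28, 11.4, 4.81 and 8.13 CPM in het and at 5.87, 5.06, 4.58 and 3.59 CPM in hom libraries. Of the hom libraries 2 lay within the het range and 2 under it, so the groups overlapped. The log2 fold change was -0.64 (SE 0.38, 95% interval -1.48 to 0.21; edgeR adjusted p = 1.00). The counts sum all exons, so they do not check the genotype labels, and how many of the sorted cells had recombined was not measured. Its closest paralog Setd1b stood at 20.5 ± 8.26 CPM in het and 18.1 ± 3.32 CPM in hom (SD, n = 4 each; log2 -0.18, SE 0.29). Lgr5, whose promoter drives the Cre, was detected in every Paneth library, at 34.6 to 46.8 CPM in het and 36.2 to 57.6 CPM in hom.

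The fraction carried the markers of its label. Lyz1, the granule enzyme lysozyme, stood at 77913, 31354, 22831 and 49850 CPM in het and at 102591, 53656, 26829 and 31261 CPM in hom libraries. Mmp7, the protease that activates pro-defensins, stood at 4552, 2078, 914 and 3317 CPM in het and at 5736, 3267, 1071 and 1614 CPM in hom. BN44 and BN45 were the highest of their groups for both genes and BO58 and BO57 the lowest, and the groups overlapped. With all 24 libraries scaled together, Lyz1 was at a mean of 59018 CPM in het Paneth libraries, 325 in het stem and 156 in het TA libraries. The genotype difference was small beside its error for Lyz1 (log2 0.24, SE 0.58) and for Mmp7 (log2 0.11, SE 0.57).

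Library totals ran from 24.7 to 35.3 M counts, and 15404 to 16852 genes had at least 10 counts. The 10 most abundant genes took 18.8% to 57.2% of a library, and TMM factors ran from 0.559 to 1.47. Totals, genes detected, the share of the top 10 genes, the mitochondrial share and the pseudogene share did not differ between genotypes by exact permutation over 70 splits (5 measures, raw p = 0.486 to 0.914, adjusted p = 0.914 for each; the smallest p possible was 0.0286). Replicate pairs of a group correlated at 0.849 to 0.910 across genes on a log2 scale, and none was a duplicate.

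The share of counts from alpha-defensins set these libraries apart from each other more than from the other genotype. It was 35.0%, 19.9%, 3.37% and 22.2% in het and 47.6%, 26.5%, 14.0% and 21.5% in hom libraries. BO58 of the het group was the lowest, BN45 of the hom group the highest, and the other 6 lay between 14.0% and 35.0% with both genotypes intermixed. Summed over the family the level ranged 37.0-fold, and of the 24 members 24 were lowest in BO58 and 23 were highest in BN45. Across the 23 members with counts in every library, single genes ranged 32.5-fold to 71.2-fold between their lowest and highest library.

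Defa24, which held the most counts of the family, stood at 197539, 102677, 13153 and 117557 CPM in het and at 426857, 146550, 65567 and 124641 CPM in hom libraries. The groups overlapped, and the difference was log2 0.83 with an SE of 0.82. Within the family the composition moved far less than its sum: Defa24 took 47.2% to 61.8% of the alpha-defensin counts and Defa30 took 13.5% to 17.6%. For the 24 members together, 0 passed the threshold in either direction. In all, 21 had a positive and 3 a negative log2 fold change, with a median of 0.68 (median SE 0.90), beside a median of -0.003 over all 16108 genes tested. The sign turned without BN45, where 2 were positive and the median was -0.64, and stayed without BO58, where 18 were positive and the median was 0.31. Without both, 0 were positive and the median was -1.02, but these 2 were picked as the lowest het and highest hom library for this family, which favours lower values.

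Other granule products followed the defensins in part. Their summed level ranged 5.66-fold, from 45729 CPM in BO58 to 258697 CPM in BN45. The ratio of alpha-defensin to granule-product counts was 2.33, 1.86, 0.504 and 1.45 in het and 3.30, 1.89, 1.70 and 2.07 in hom libraries, lowest again in BO58. Itln1, an intelectin that binds microbial sugars, stood at 28285 ± 15067 CPM in het and 36628 ± 19650 CPM in hom. Ang4, a bactericidal ribonuclease, stood at 10183 ± 5237 and 16285 ± 9587 CPM, and the pentraxin gene Mptx2 at 14161 ± 9706 and 9924 ± 6720 CPM. Clps, encoding colipase, had a log2 fold change of 1.03 (SE 0.65) and Dmbt1, a mucosal scavenger receptor, of -0.62 (SE 0.33). Of 27 members tested 0 were called, 18 were positive and 9 negative, and the median was 0.22. It was -0.39 without BO58 and BN45, -0.14 without BN45 alone and -0.03 without BO58 alone.

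Lineage regulators and niche signals of Paneth cells varied less than the secreted products, with a 1.86-fold range of their sum. Xbp1, the transcription factor of the secretory unfolded protein response, stood at 299, 257, 292 and 307 CPM in het and at 315, 259, 308 and 281 CPM in hom. These 8 values overlapped almost completely (log2 0.01, SE 0.18, 95% interval -0.38 to 0.40). Sox9, needed for Paneth cell formation, stood at 174 ± 61.8 and 170 ± 87.9 CPM, and the receptor kinase Kit at 67.8 ± 20.6 and 77.9 ± 10.2 CPM. Fzd5, the Wnt receptor of Paneth maturation, had a log2 fold change of -0.40 (SE 0.23), and Egf, a growth factor for stem cells, of -0.72 (SE 0.53). Of 27 members tested 0 were called, and their median was 0.01.

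**Figure D1:**
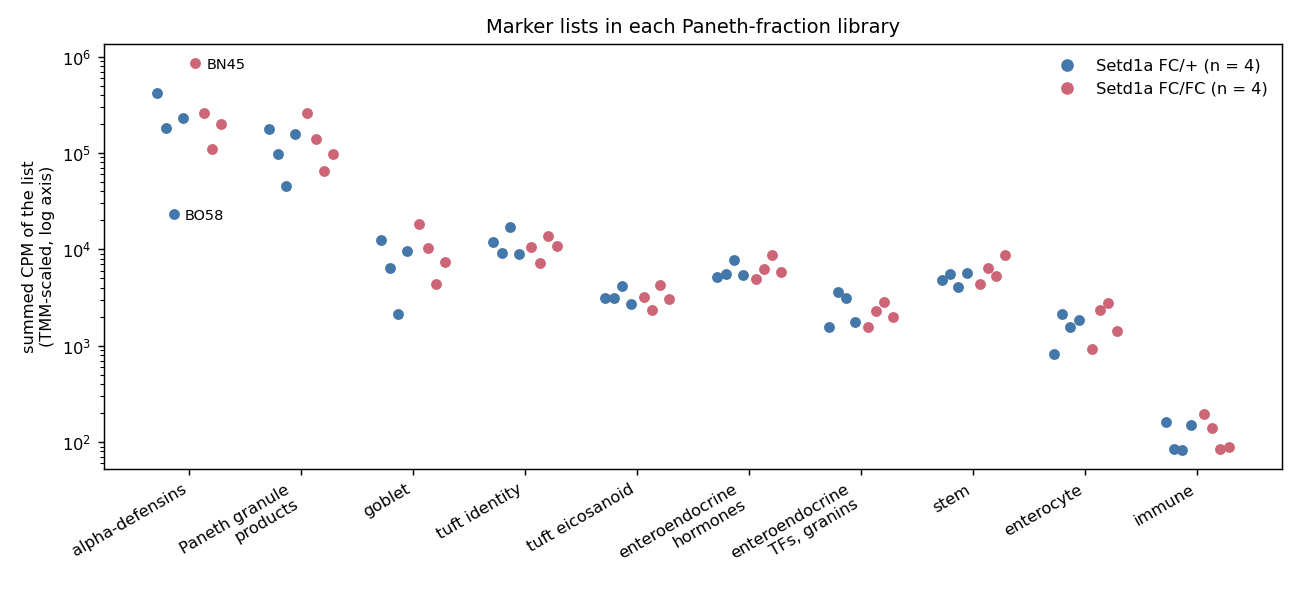
Summed CPM of 10 marker lists (log axis) in each of the 4 het (blue) and 4 hom (red) Paneth libraries, each point 1 library. Alpha-defensins spread 37.0-fold, with BO58 lowest and BN45 highest, while both tuft lists spread 2.34-fold or less.

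Tuft cell transcripts were abundant in every library of the gate. The tuft identity list, taste-type signalling included, summed to 9041 to 16952 CPM in het and 7243 to 13616 CPM in hom, and the eicosanoid and blood cell signalling list to 2693 to 4147 and 2361 to 4272 CPM. Trpm5, the cation channel of taste signalling, stood at 323, 311, 419 and 269 CPM in het and 282, 234, 398 and 381 CPM in hom. The tuft marker Dclk1 stood at 709 ± 146 CPM in het and 585 ± 222 CPM in hom. BO58, poorest in defensins, was the highest of the 8 for the identity list, and BO57, poorest among hom, was the highest of its group. The ratio of alpha-defensin to tuft counts ran from 1.09 in BO58 to 61.3 in BN45.

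No tuft gene passed the threshold among 35 of the identity list and 22 of the eicosanoid list, and the medians were -0.0008 and 0.02. Chat, which makes acetylcholine, stood at 12.7, 10.0, 12.9 and 12.02 CPM in het and at 17.99, 12.8, 32.5 and 19.2 CPM in hom. In hom, 3 libraries were above all het libraries and BO25 was inside the het range (log2 0.79, SE 0.30, unadjusted p = 0.0214, edgeR adjusted p = 1.00). It was the 1 member of 35 higher at an unadjusted p under 0.05, beside 0.919% of all genes. Cd300lf, an inhibitory receptor of tuft cells, stood at 39.7 to 55.7 CPM in het and 57.9 to 64.9 CPM in hom, without overlap. Its log2 fold change was 0.39 (SE 0.19, unadjusted p = 0.0601); of all genes tested 1.79% had groups that did not overlap (0.844% higher, 0.944% lower), so 1 of 35 members is near that background. Il25, the cytokine of tuft cells in type 2 immunity, stood at 3.21 ± 2.50 CPM in het and 1.35 ± 0.430 CPM in hom. The leukotriene synthesis gene Alox5ap had a log2 fold change of -0.10 (SE 0.34), and Matk, a kinase that restrains Src, had 0.37 (SE 0.18).

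Enteroendocrine hormones differed more between animals than between genotypes. Gip, the incretin of K cells, stood at 2109, 2428, 1973 and 1896 CPM in het and at 1992, 1879, 4304 and 3192 CPM in hom. Gcg, the glucagon gene expressed in L cells, stood at 824, 903, 2641 and 263 CPM in het and at 26.0, 2252, 440 and 55.8 CPM in hom libraries. Gcg ranged far more widely than Gip, with the lowest value in BN45 and the highest in BO58, and its groups overlapped (log2 -0.74, SE 1.12). Sst, encoding somatostatin, was at 236 CPM in BO27 and 173 CPM in BO25 against 1068 to 1950 CPM in the other 6 libraries. The ghrelin gene Ghrl stood at 634 ± 319 and 654 ± 156 CPM.

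The neurotensin gene Nts had 1540, 72, 0 and 539 counts in het and 0, 0, 2 and 0 counts in hom libraries. It was named after its values were seen, did not pass the filter on low counts and was therefore not tested in the comparison; BO58 at 0 overlapped with hom. With no filter edgeR called it lower (adjusted p = 6.09e-10). Slc18a2, the vesicular monoamine transporter, stood at 12.5 ± 5.81 CPM in het and 5.52 ± 2.97 CPM in hom (log2 -1.18, SE 0.47, unadjusted p = 0.0297, edgeR adjusted p = 1.00). It was the 1 member of 18 lower at an unadjusted p under 0.05, beside 1.37% of all genes. Of these 18 hormone and serotonin genes 0 were called, with a median of -0.21.

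Among enteroendocrine transcription factors and granins 0 members were called, with a median of -0.24. A negative log2 fold change was found for 35 of 40 members, beside 8113 of the 16108 genes tested. Without BO58 and BN45, 26 of 41 members were negative. Etv1, an ETS factor, stood at 11.6, 15.8, 23.9 and 14.9 CPM in het and at 9.19, 9.87, 10.2 and 6.09 CPM in hom. The groups did not overlap (log2 -0.91, SE 0.30, unadjusted p = 0.0113, edgeR adjusted p = 1.00). Etv1 was the 1 member of 40 lower without overlap, beside 0.944% of all genes. It was also the 1 member lower at an unadjusted p under 0.05, beside 1.37%. Neurog3, the factor that starts enteroendocrine differentiation, stood at 10.2 ± 7.13 CPM in het and 4.31 ± 2.92 CPM in hom, and Neurod1 at 137 ± 57.2 and 123 ± 62.1 CPM. The summed level of the list was 1554 to 3644 CPM in het and 1584 to 2851 CPM in hom. In such bulk libraries a difference in the number of cells of a type and one in RNA per cell cannot be told apart.

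Scaling libraries to the summed counts of a compartment lowers the spread of its members by construction. The median SD of log2 levels within groups was 1.08 for Paneth granule products and 0.67 after scaling to their sum, 0.65 and 0.46 for enteroendocrine genes, and 0.38 and 0.35 for tuft genes. The median SE of their log2 fold changes was larger after scaling, at 0.58 and 0.68 for granule products, 0.38 and 0.41 for enteroendocrine genes and 0.27 and 0.33 for tuft genes. Of the granule, tuft and enteroendocrine members 0 were called on these scales. The 3 scalings moved the median of all genes to -0.28, 0.12 and 0.10 in the order granule, tuft and enteroendocrine.

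Markers of further cell types were also present, with sums of 2112 to 18376 CPM for the goblet list and 4066 to 8736 CPM for the stem cell list. Goblet genes ranged 8.70-fold in their sum and shared Spink4 and Agr2 with the granule list. Muc2, the gel-forming mucin, stood at 547 ± 433 CPM in het and 591 ± 391 CPM in hom, whereas Zg16, a goblet lectin, stood at 0.185, 8.63, 3.73 and 310 CPM in het and at 0.574, 70.1, 8.81 and 3.67 CPM in hom. The stem cell gene Olfm4 stood at 3027 ± 508 and 4143 ± 1730 CPM, and 0 of 34 stem markers were called. Immune markers summed to 83.1 to 160 CPM in het and 84.1 to 196 CPM in hom, and 12 of 35 had at most 10 counts in any library. The T cell gene Cd3e had 0 to 4 counts. Stromal and endothelial markers summed to 10.2 to 69.1 CPM.

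Some enterocyte genes gave the largest fold changes of the marker lists, and these rested on a few libraries. Of 34 members tested 0 were called, 21 were positive and 13 negative, and the median was 0.14. Cyp3a11, a drug-metabolizing cytochrome P450, stood at 1.26, 10.9, 0.359 and 0.203 CPM in het and at 3.57, 19.3, 203 and 10.4 CPM in hom. Apoa1, an apolipoprotein of lipid export, stood at 1.40, 34.5, 32.1 and 17.9 CPM in het and at 14.7, 175, 382 and 18.3 CPM in hom. BO57 was the highest for both and the groups overlapped. The log2 fold changes were 4.23 (SE 1.45) for Cyp3a11, 2.78 (SE 1.08) for Apoa1, 3.17 (SE 1.31) for Apoa4 and 3.48 (SE 1.44) for the lactase gene Lct. All 4 had an unadjusted p under 0.05, as did 0 of the other 30 members and 2.28% of all genes, and the edgeR adjusted p was 1.00 for each. With no filter on low counts edgeR called Cyp3a11 (adjusted p = 8.78e-05) and Apoa1 (0.00252) higher. Apoa4 and Lct were not called in any alternative. Without BO57 the log2 fold changes were 1.80 for Cyp3a11, 1.69 for Apoa1, 0.73 for Apoa4 and 2.41 for Lct. Fabp1, encoding a fatty acid binding protein, stood at 267 ± 282 CPM in het and 329 ± 84.7 CPM in hom.

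Across all genes, 0 of 16108 were higher and 0 lower in hom Paneth libraries by the edgeR quasi-likelihood test (0% called; smallest adjusted p = 0.143). At an unadjusted p under 0.05 there were 148 higher and 220 lower genes, 2.28% in all, where 5% of the genes would be 805. The groups did not overlap for 288 genes (136 higher, 152 lower). With all 24 libraries in 1 fit, 2 genes were called in the Paneth fraction (0.0103%), Cyp2c55 higher and Rps13-ps2 lower. DESeq2 called 12 genes higher and 15 lower, and edgeR without a filter on low counts called 4 and 4. The median SE of a log2 fold change was 0.39.

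**Figure D2:**
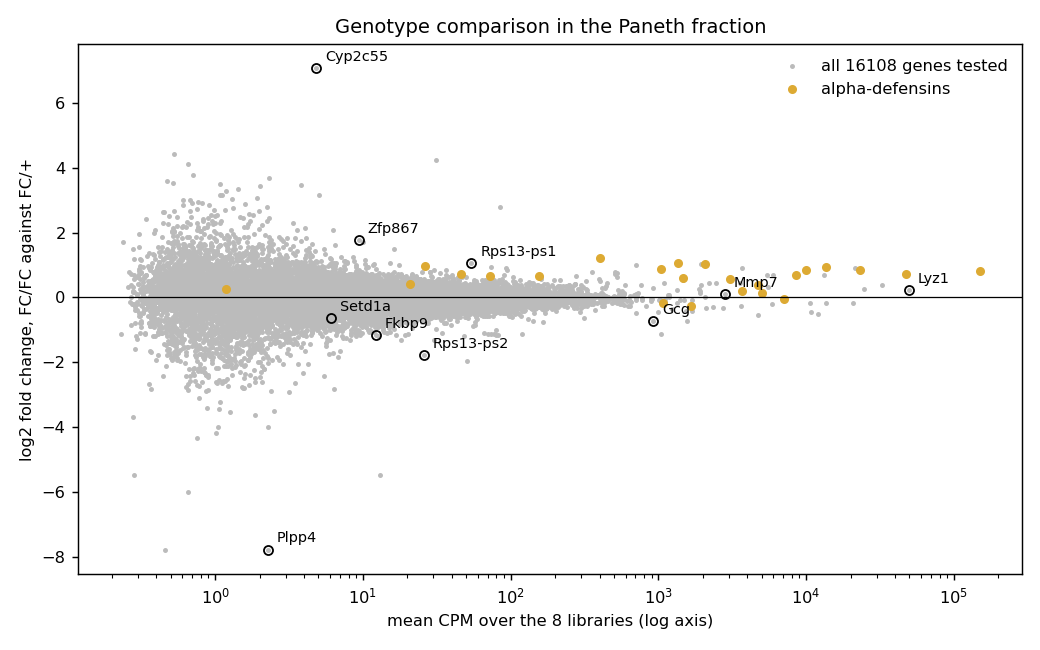
Log2 fold change of hom against het in the Paneth fraction against mean CPM over the 8 libraries (log axis), each grey point 1 of 16108 genes. Alpha-defensins (yellow) lie between -0.27 and 1.20, and Cyp2c55 and Plpp4 stand at 7.07 and -7.78; 0 genes passed the adjusted threshold.

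Both genes of smallest p were near 0 in 1 genotype. Cyp2c55 (chromosome 19, 39007019 to 39042693), a cytochrome P450 of the Cyp2c family, had 0, 3, 0 and 5 counts in het and 64, 318, 603 and 204 counts in hom Paneth libraries. On the scaled level it stood at 0, 0.104, 0 and 0.169 CPM in het and at 4.08, 9.81, 18.9 and 5.43 CPM in hom, so every hom library was above every het library. The ratio of the summed counts per scaled library size was 153.9 (95% counting interval 77.9 to 357, for counting error only). The fitted log2 fold change was 7.07 (SE 0.98), with an edgeR adjusted p of 0.143 over all genes. Leaving out 1 library at a time, its adjusted p ran from 0.258 to 0.9998. It was 0.00116 when all 24 libraries shared 1 fit and 2.52e-13 with DESeq2.

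The level of Cyp2c55 in the other fractions differed from that in het Paneth libraries. With 24 libraries scaled together it stood at 17.9 ± 12.6 CPM in het and 24.3 ± 12.9 CPM in hom stem cells and at 7.61 ± 3.92 and 7.77 ± 2.42 CPM in TA cells, against 0.0904 ± 0.110 and 12.6 ± 8.94 CPM in the Paneth fraction. The genotype effect in the Paneth fraction exceeded that in TA cells by log2 7.09 (SE 1.07, edgeR adjusted p = 0.0233, 19396 genes tested) and that in stem cells by 6.68 (SE 1.07, adjusted p = 0.0524). Against TA cells the adjusted p ran from 0.0366 to 0.348 when 1 animal was left out, and it was under 0.05 only without BO58. It was 0.709 with limma and the animal as a block. The enterocyte list summed to 814 to 2126 CPM in het and 933 to 2792 CPM in hom Paneth libraries and was highest in BO57, as was Cyp2c55. The stem cell list ran from 4066 to 5715 and from 4373 to 8736 CPM. Their part in the Cyp2c55 result was not tested.

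Plpp4 (chromosome 7, 129257031 to 129391412), a phospholipid phosphatase, had the smallest p and was named after its values were seen, since its mean level of 2.27 CPM is under the minimum set for named genes. It had 77, 39, 241 and 215 counts in het and 0, 1, 0 and 1 in hom Paneth libraries. All 4 het libraries were above all hom libraries, and the ratio of het to hom counts per scaled library size was 276.2 with a 95% counting interval of 76.1 to 2286. The edgeR adjusted p was 0.143 and the DESeq2 adjusted p 5.64e-08. With 1 library left out at a time, the edgeR adjusted p of Plpp4 ran from 0.0812 to 0.6998, so it did not pass in any of these fits. In the 16 stem and TA libraries Plpp4 was at 0 to 0.0757 CPM without TMM correction. Plpp4 lies 1.46 Mb from Setd1a on the same chromosome. Within 5 Mb of Setd1a 128 genes were tested, of which 6 (4.69%) had an unadjusted p under 0.05, 2 higher and 4 lower with Plpp4 among them, beside 2.28% of all genes.

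**Figure D3:**
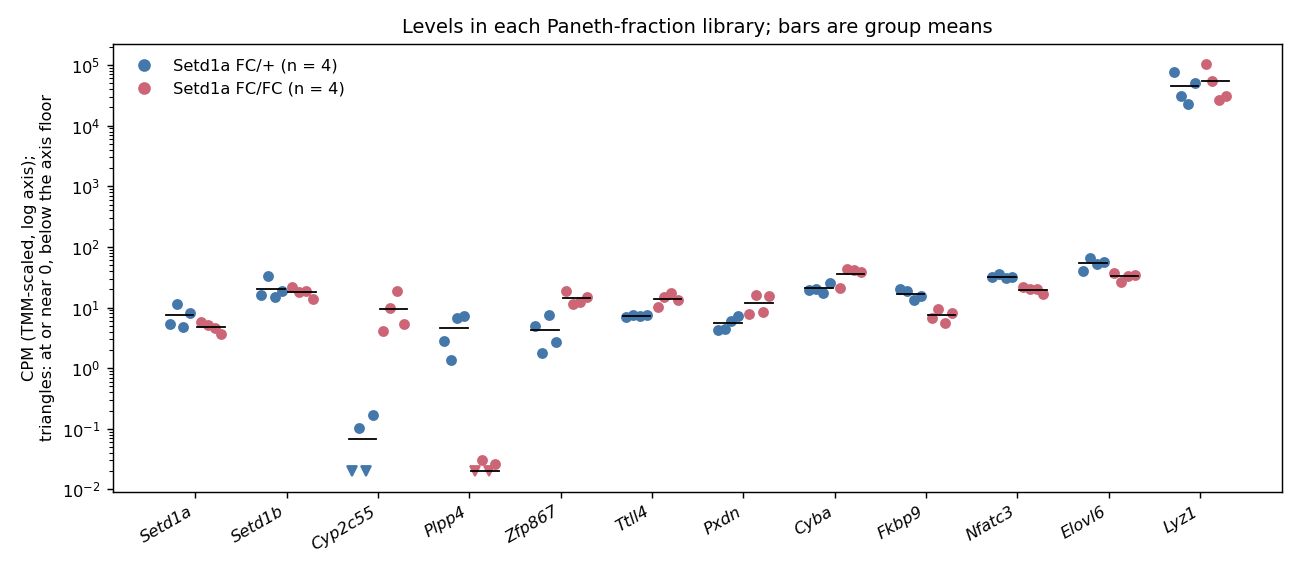
CPM (log axis) of 12 genes in each het (blue) and hom (red) Paneth library, with group means as bars; triangles are libraries at 0, drawn at the axis floor, as is the Plpp4 mean in hom. Cyp2c55 and Plpp4 separate the groups, as do Zfp867, Ttll4, Pxdn, Fkbp9, Nfatc3 and Elovl6 by a smaller distance, while Setd1a, Setd1b, Cyba and Lyz1 overlap.

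The 10 genes of smallest unadjusted p in each direction, at a mean of 5 CPM or more, were then described. Each of these 20 genes had an edgeR adjusted p of 1.00, so their values are given as a description. Zfp867, a zinc finger gene, stood at 5.02, 1.80, 7.49 and 2.73 CPM in het and at 18.7, 11.6, 12.5 and 15.1 CPM in hom, without overlap (log2 1.76, SE 0.44). Ttll4, which adds glutamate chains to tubulin, stood at 6.90 to 7.49 CPM in het and 10.0 to 17.5 CPM in hom (log2 0.94, SE 0.26). Zfp667 had a log2 fold change of 1.13, Zfp141 of 1.17 and Zfp26 of 1.01, and Zfp26 overlapped through BN45. Pxdn, encoding peroxidasin of the basement membrane, stood at 5.50 ± 1.39 CPM in het and 11.96 ± 4.54 CPM in hom. Cyba, the p22phox subunit of NADPH oxidases, stood at 20.7 ± 3.63 and 35.8 ± 9.84 CPM, with BN45 at 21.3 CPM inside the het range. The others were Ogdhl, a relative of oxoglutarate dehydrogenase (0.94), Uhrf2, a ubiquitin ligase that binds modified DNA (0.62), and Plbd1, with a phospholipase B domain (0.86).

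On the lower side, Fkbp9, a prolyl isomerase of the endoplasmic reticulum, stood at 20.2, 18.9, 13.1 and 15.5 CPM in het and at 6.76, 9.59, 5.45 and 8.17 CPM in hom, without overlap (log2 -1.17, SE 0.28). Nfatc3, a transcription factor activated by calcineurin, stood at 32.1, 35.1, 30.6 and 31.6 CPM in het and at 21.9, 20.0, 20.1 and 16.9 CPM in hom, also without overlap (log2 -0.71, SE 0.18). DESeq2 called Fkbp9 (adjusted p = 0.0244), Nfatc3 (0.0181) and, on the higher side, Ttll4 (0.0438). Elovl6, a fatty acid elongase, stood at 53.8 ± 10.1 CPM in het and 32.7 ± 4.61 CPM in hom, and Sos1, the exchange factor that activates Ras, at 44.9 ± 6.35 and 25.8 ± 5.27 CPM. Pign, an enzyme of GPI anchor synthesis, had a log2 fold change of -0.94, the importin gene Ranbp6 of -1.03 and Tedc1 of -0.87, and these did not overlap between groups. Usp31, a deubiquitinase (-1.73), Tnfaip8l3, a phosphoinositide transfer protein (-1.84), and Vwa5a (-0.97) overlapped.

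Lists of chromatin, damage response and housekeeping genes held 0 called members each. Among 20 genes of H3K4 methyltransferases and COMPASS subunits 15 were negative, with a median of -0.20 that was -0.02 when scaled to the enteroendocrine list. Wdr82, the subunit that ties Setd1a complexes to RNA polymerase, stood at 40.5 ± 13.4 CPM in het and 28.1 ± 6.45 CPM in hom, and the shared subunit gene Dpy30 at 99.8 ± 30.1 and 119 ± 25.3 CPM. The methyltransferase gene Kmt2a had a log2 fold change of -0.23 (SE 0.22). Of 41 p53 targets 23 were positive with a median of 0.06. Cdkn1a, encoding p21, stood at 152 ± 32.2 CPM in het and 167 ± 31.2 CPM in hom, while the receptor gene Eda2r stood at 0.475 ± 0.614 and 2.61 ± 1.92 CPM (log2 2.44, SE 1.05). Of 52 DNA repair and Fanconi anemia genes 1 had an unadjusted p under 0.05, Fancb at 2.67 ± 0.872 CPM in het and 5.40 ± 1.52 CPM in hom, which is near the 2.28% of all genes.

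Nuclear oxidative phosphorylation genes were positive in 41 of 54 members with a median of 0.23, and cytosolic ribosomal protein genes in 43 of 51 with a median of 0.20, beside 49.6% positive over all genes. Without BO58 and BN45 these counts were 39 of 54 (median 0.10) and 32 of 51 (median 0.05). Atp5j, a subunit of ATP synthase, stood at 262, 271, 120 and 287 CPM in het and at 301, 315, 322 and 312 CPM in hom. The groups did not overlap and BO58 was far under the rest (log2 0.41, SE 0.26). Of the 54 oxidative phosphorylation members 2 were higher without overlap, beside 0.844% of all genes. The ribosomal gene Rpl32 was likewise lowest in BO58, at 135 CPM against 356 to 591 CPM in the other 7 libraries. Of 28 unfolded protein and integrated stress response genes 12 were positive; Asns, the asparagine synthetase gene, stood at 81.7 ± 32.6 and 126 ± 30.2 CPM (log2 0.62, SE 0.31).

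Genes that led the genotype comparisons of stem and TA cells were then followed in the Paneth fraction. That list was chosen on the same animals' stem and TA libraries, and 15 of its 16 members were tested. This choice favours large differences between the Paneth effect and the stem or TA effect, so these differences are a description. Cbr4, a mitochondrial carbonyl reductase, stood at 10.0, 22.2, 22.5 and 11.4 CPM in het and at 18.6, 23.0, 16.9 and 6.94 CPM in hom Paneth libraries. The groups overlapped, with a log2 fold change of -0.02 (SE 0.40, 95% interval -0.89 to 0.85). The fit of 24 libraries has no term for the animal. In that fit the value for Cbr4 was -0.03 (SE 0.32) in the Paneth fraction, -2.26 (SE 0.34) in stem cells and -1.17 (SE 0.32) in TA cells. The Paneth effect minus the stem cell effect was 2.23 (SE 0.46, unadjusted p = 7.1e-05), which did not pass over all genes (edgeR adjusted p = 0.230). Foxred1, an assembly factor of complex I, had -0.02 (SE 0.24) in the Paneth fraction and -1.51 (SE 0.24) in stem cells, a difference of 1.49 (SE 0.34, adjusted p = 0.300). Coq9, of coenzyme Q synthesis, had -0.17 (SE 0.16), -0.91 (SE 0.16) and -1.04 (SE 0.16) in Paneth, stem and TA libraries.

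Gatb, Cip2a and Mbtps2 are described for the size of their interaction and are not in that list. Palb2, the partner of Brca2 in recombination, had 0.91 (SE 0.45) in the Paneth fraction and -1.68 (SE 0.45) in stem cells, and Gatb, of mitochondrial glutamine tRNA charging, had 0.54 (SE 0.37) and -1.97 (SE 0.38). The differences were 2.60 (SE 0.64, adjusted p = 0.413) and 2.51 (SE 0.53, adjusted p = 0.255). Cip2a, an inhibitor of the phosphatase PP2A, went the other way, at -0.67 (SE 0.17) in the Paneth fraction and 0.47 (SE 0.17) in stem cells (difference -1.14, SE 0.24, adjusted p = 0.262). Sdhc of complex II stood at 136 ± 14.8 CPM in het and 115 ± 14.9 CPM in hom Paneth libraries, Ndufv1 of complex I at 106 ± 22.3 and 105 ± 20.2, and Ephx1, an epoxide hydrolase, at 10.5 ± 5.30 and 13.9 ± 6.76 CPM. The remaining members Cldn8, Anxa3, Zfp512, Ccdc91, Tvp23b, Ufl1 and Axin2 had Paneth log2 fold changes between -0.57 and 0.25. Over all 19396 genes the genotype effect differed from that in stem cells for 0 genes (0% called; 1219, or 6.28%, at an unadjusted p under 0.05) and from that in TA cells for 1 (0.00516% called; 965, or 4.98%, at an unadjusted p under 0.05), which was Cyp2c55. The mean of Mbtps2, a protease that activates sterol and stress factors, was 23.0 ± 5.03 CPM in het and 13.4 ± 2.70 CPM in hom Paneth libraries, and its effect differed from that in TA cells by -1.06 (SE 0.27, adjusted p = 0.756).

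**Figure D4:**
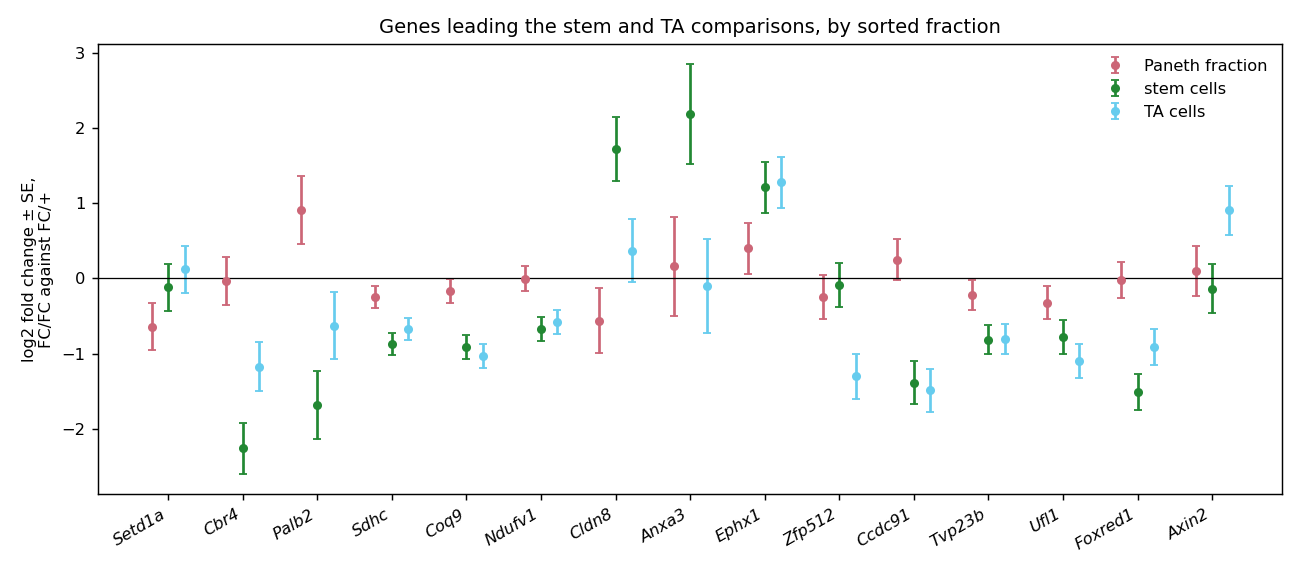
Log2 fold change with SE of hom against het in the Paneth fraction (red), stem cells (green) and TA cells (light blue), from 1 fit of all 24 libraries, for Setd1a and 14 genes that led the stem and TA comparisons. Cbr4, Foxred1 and Coq9 lie near 0 in the Paneth fraction and under 0 in the other two. The 14 genes were chosen on these same stem and TA libraries, which favours such differences.

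The share of Rps13-ps2 in the counts of 2 processed copies of the ribosomal protein gene Rps13 did not overlap between genotypes in any fraction. The copies were named after their values were seen, so the separation is a description. The coding parts of the 3 reference transcripts were compared over 453 bases, counted from the first base of the start codon. Rps13-ps2 had 0 differences from Rps13 and Rps13-ps1 had 2, at positions 411 and 429, in capitals below in the stretch from position 381 to 449 (GENCODE M21, mm10, shown along each transcript).
Rps13: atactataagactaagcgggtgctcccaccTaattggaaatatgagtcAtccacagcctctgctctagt
Rps13-ps1: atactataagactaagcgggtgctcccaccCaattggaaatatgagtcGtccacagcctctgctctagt
Rps13-ps2: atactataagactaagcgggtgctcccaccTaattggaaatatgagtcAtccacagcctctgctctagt
Rps13 lies on chromosome 7 (116331505 to 116334195, minus strand), 11.4 Mb from Setd1a. Rps13-ps2 lies on chromosome 7 (88530446 to 88530898, minus strand), 39.2 Mb from Setd1a, and Rps13-ps1 on chromosome 8 (87047689 to 87048226, plus strand). In the Paneth fraction Rps13-ps2 stood at 47.5, 51.4, 14.7 and 46.4 CPM in het and at 15.5, 14.3, 9.18 and 7.82 CPM in hom. BO58 overlapped with hom (log2 -1.78, SE 0.39, edgeR adjusted p = 1.00). Rps13-ps1 stood at 39.8, 45.6, 13.1 and 42.4 CPM in het and at 91.3, 84.6, 63.3 and 53.1 CPM in hom, without overlap (log2 1.05, SE 0.36, adjusted p = 1.00). The Rps13-ps2 share of the counts of both copies was 54.4%, 53.02%, 52.9% and 52.3% in het and 14.5%, 14.4%, 12.7% and 12.8% in hom Paneth libraries. It was 53.2% ± 0.889 against 13.6% ± 0.999 (SD, n = 4 each). It stood at 51.8% to 54.7% in het and 13.2% to 15.8% in hom stem libraries, and at 50.9% to 54.3% and 12.3% to 14.7% in TA libraries. With transcripts so alike, reads of the parent gene or the other copy may have been counted for a copy. The parent Rps13 had only 84 to 414 counts in the Paneth libraries, where both copies together had 1005 to 3205. How reads with several matches were treated is not known, so the level of each copy is uncertain.

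**Figure D5:**
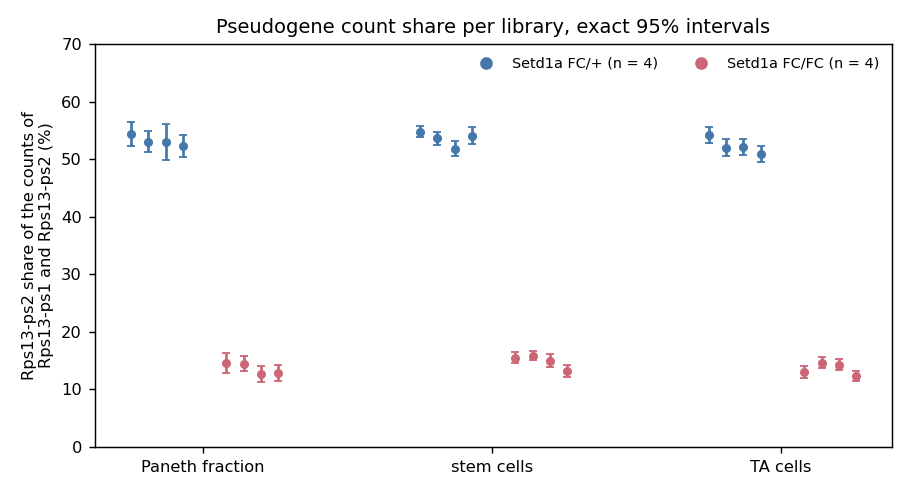
Rps13-ps2 share of the summed counts of Rps13-ps1 and Rps13-ps2 (%) in each het (blue) and hom (red) library of the 3 fractions, with exact 95% binomial intervals. All 12 het libraries lie between 50.9% and 54.7% and all 12 hom libraries between 12.3% and 15.8%.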

How the data were processed

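Poly(A)-primed cDNA of sorted cells was amplified and sequenced, per the labels' protocols. The authors deposited raw counts per gene, made with featureCounts 2.0.1 on mm10 after bcl2fastq 2.20.0, per the submitters' processing notes; the file headers name GSNAP alignments, and its version is not stated in any source at hand. Per the file headers, counting was unstranded, by fragment, on Ensembl 98 models with a mapping quality of at least 1, so a gene and its antisense partner cannot be told apart. The 92 ERCC rows were left out. All 8 Paneth libraries were used, 24.7 to 35.3 M counts each. After filterByExpr and TMM scaling, edgeR 4.0.16 (quasi-likelihood F test) compared the groups, 4 against 4, at a Benjamini-Hochberg adjusted p under 0.05. The script was tested on simulated data. Interactions used all 24 libraries in 6 groups. DESeq2 1.42.0, limma 3.58.1 (R 4.3.3), other scalings and filters, covariates and left-out libraries were alternatives; scaling to compartments and leaving out BO58 and BN45 were added after seeing the data. Intervals for counts and shares (95%, scipy) cover counting error only. The members and lists were chosen with earlier results of these data known. Named were the 10 genes of smallest p per direction at a mean of 5 CPM or more (no Gm, Rik or -ps symbols; 12 past the threshold had any passed), 4 per list by level and 4 by p, 5 per interaction, Setd1a, Setd1b, Lyz1, Mmp7 and the genes leading the stem and TA comparisons. Plpp4, Nts, Rps13 copies, Gm43305, Trpm5, Dclk1 and Cd3e were named outside that rule. Some members within the rule are not reported here. P-values of the 4 against 4 comparison measure the spread between these animals. The edgeR fit of all 24 libraries has no term for the animal, which gave a library of every fraction. Its p-values and SEs treat libraries of the same animal as independent and share the spread across fractions.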

Additional observations from a re-analysis of the deposited data

Results flagged for a closer look

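In 264 groups of 4 libraries (101 named genes, the summed lists and the library measures), 1 library stood apart from the other 3 in 22 groups (8.33%) by Dixon's criterion, which chance alone meets in about 1 in 20. BO58, the het library poorest in alpha-defensins, stood apart for Rps13-ps2 (14.7 CPM against 46.4 to 51.4), Atp5j (119.7 against 262 to 287), Ndufv1 (139 against 93.0 to 96.9), Alox5ap (695 against 335 to 380) and the summed enteroendocrine hormones (7671 against 5149 to 5554 CPM). BO27 did so for Fzd5 (60.1 CPM), Sst (236, the only low value among these of BO27) and Cyp3a11 (10.9).

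BP03 was far above the other het libraries for the goblet genes Clca1 (42.3 CPM against 0.0829 to 1.29) and Zg16 (309.7 against 0.185 to 8.63), and BO25 above the other hom libraries for Zg16 (70.1 CPM). BO57 was above the other hom libraries for Cyp3a11 (203 CPM), Apoa4 (31.2), the tuft signalling gene Vav1 (171) and Neurod1 (215). BN45 had the highest sum of Paneth lineage regulators and niche signals, at 1456 CPM against 933 to 1003 CPM in the other hom libraries. Among het libraries BN44 reached 1343 CPM.

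Both libraries of the BN animals stood apart for immediate early genes, which respond to stimulation and to cell dissociation. Their list summed to 2506 CPM in BN44 and 2638 CPM in BN45 against 788 to 1118 CPM in the other 6 libraries. Without TMM correction BN44 stood at 2096 CPM, but BN45 at 1472 CPM was under BO58 at 1545 CPM and near BO57 at 1377 CPM. In stem libraries, also without TMM correction, BN44 and BN45 stood at 6646 and 4800 CPM against 1211 to 2194 CPM in the other 6. Fos stood at 522 and 622 CPM and Btg2 at 295 and 300.4 CPM in BN44 and BN45. The animals are 1 of each genotype.

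The genotype effect on Cyp2c55 differed between the Paneth fraction and TA cells by 7.09 on the log2 scale (edgeR adjusted p = 0.0233), with 4 of 4 hom Paneth libraries above all het ones. That fit does not use the animal, which gave both fractions. With limma and the animal as a block the adjusted p was 0.709, and leaving out 1 animal gave an edgeR adjusted p of 0.0366 to 0.348, under 0.05 only without BO58.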

How the results depend on the processing

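No gene passed in either direction of the Paneth comparison with edgeR, with 0 also for relative log expression factors, a minimum of 5 CPM, defensins left out or as covariate, sex as covariate, limma, scaling to tuft genes and each library left out. Genes higher and lower numbered 4 and 4 with no filter, 1 and 1 with all 24 libraries in 1 fit, 12 and 15 with DESeq2, 1 and 3 on granule scaling and 1 and 1 on enteroendocrine scaling. At an unadjusted p under 0.05 the main comparison had 368 genes, and leaving out 1 library gave 330 to 583. Without BO58 and BN45 it was 847, with 0 called. The cause was not tested.

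The genotype effect in the Paneth fraction was above that in stem cells for 1 gene at a minimum of 5 CPM. Against TA cells 1 gene was higher, 0 to 1 when an animal was left out (0 without BN45, BO25, BO27, BO57, BP03 or BP04), and 0 to 1 were lower (1 without BN44). With limma and the animal as a replicate block 0 were higher. For library measures, leaving out 1 library gave differences of -325 to 157.7 for genes detected, -2.55 to 0.228 for the mitochondrial percentage, -0.387 to 0.427 for the pseudogene percentage, 1.03 to 11.04 for the top 10 percentage and 0.0199 to 3.35 for total counts in M. The sign turned without BN45 for genes detected (157.7), mitochondrial (0.228) and pseudogene percentage (0.427), and without BO58 for the latter (0.293).

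The labels give no pairing. A replicate block of neighbouring animal numbers called 0 genes higher and 0 lower, with 612 at an unadjusted p under 0.05. Deviations of such neighbours from their group means correlated at 0.273, -0.00226, 0.186 and 0.0779. All other combinations of a het and a hom animal lay between -0.260 and 0.0627. Whether neighbours shared a batch was not tested, and the main comparison was left unpaired because no label gives pairs. Of 101 named genes, 65 kept their sign in every alternative run and 36 did not, in 135 of 2207 fits. The median SE of a log2 fold change was 0.39.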

Other observations

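Gm43305 (chromosome 14, 54292443 to 54297456) separated 2 het animals from the other 6 in every fraction. In Paneth libraries it had 757, 6, 2668 and 10 counts in het and 7, 17, 13 and 33 counts in hom. BN44 and BO58 were also high in stem cells, at 6461 and 2995 counts against 43 to 125 in the other 6, and in TA cells, at 6012 and 5840 against 38 to 96. EdgeR without a filter on low counts called it in the Paneth comparison. However, 2 of 4 het libraries, BO27 and BP03, stood at 0.208 and 0.338 CPM, under the hom libraries at 0.407 to 0.878 CPM. The het libraries therefore lay on both sides of the hom values.

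Of 21 immediate early genes at 5 CPM or more in the Paneth fraction, 17 had BN44 and BN45 as their 2 highest libraries by TMM-corrected level. Among interferon response and MHC class II genes 0 of 30 were called, with a median log2 fold change of -0.15. S phase genes were positive in 30 of 40 members (median 0.15) and G2 and mitosis genes in 14 of 32 (median -0.04), each with 0 called. Mitochondrially encoded genes were positive in 4 of 15, with a median of -0.17.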
